A study of Arabidopsis thaliana with 6 samples.

Results

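The transcripts described here are those read by the block of the Affymetrix ATH1 array laid out for genes of the mitochondrial and plastid genomes. The block was taken by number, as an unbroken run of probe set numbers whatever their suffix, and holds 150 of the 22746 probe sets tested. RNA came from whole roots of 5-do *Arabidopsis* seedlings, and each of 3 biological replicates per genotype was a pool of 120 roots on 1 array. The mutant *ninja-1* carries a mutant allele of *NINJA*, which encodes an adaptor that brings co-repressors to JAZ proteins in jasmonate (JA) signalling. It was set against WT. The paper names accession Columbia (Col) as its WT line and as the background of its mutants. The *JAZ10pro-GUSPlus* (JGP) reporter line is named there as WT for experiments with another mutant. The array methods of the paper do not mention this reporter. Seedlings of both genotypes grew horizontally for 5 d at 21 °C with 14 h of light and 10 h of dark, and received no treatment. The transcript of *NINJA* itself is not analysed here, because the annotation used names no probe set for it.

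Plastids and mitochondria keep small genomes of their own. The plastid genome encodes core subunits of the photosynthetic complexes together with part of the machinery that expresses them (an RNA polymerase, ribosomal proteins and an intron maturase), and in roots it is carried by mostly non-green plastids. The mitochondrial genome encodes subunits of the respiratory chain, cytochrome c maturation factors and some ribosomal proteins. Nuclear genes supply all other subunits of these complexes, so the level of a complex depends on both compartments. Biotin labelling for this array type normally starts at poly(A) tails, which stable organelle transcripts mostly lack, so a value of the block does not measure the whole pool of an organelle RNA.

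By the annotation, 77 members of the block read plastid genes (76 different genes), 13 read mitochondrial genes, 15 read nuclear genes of chromosome 2 and 45 have no gene name. The block is therefore not purely organellar. Of the nuclear members, 5 belong to AT2G07 loci, in a region known to carry a copy of the mitochondrial genome, and 10 to AT2G26 loci. Among the plastid members, 8 probe sets are listed with 2 entries of 1 gene symbol, for genes such as *rps12*, *rps7*, *rpl2* and *ycf1*, and the signals of the copies cannot be told apart.

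The authors computed the values with GCRMA on the log2 scale, so a difference of 1 is 2-fold. The lowest value on every array was 2.11. Between 60 and 63 members (40.0% to 42.0%) lay within 0.05 of this floor on an array, against 26.5% to 27.0% of all probe sets tested. In all, 65 members were flat, meaning that their 6 values spanned less than 0.05. They include *psaA*, *psaC*, *psbB*, *psbD*, *petD*, *rpoB*, *atpI* and 7 of the 11 members for the NDH complex. Most of the flat members lay at the floor, where a lower level in *ninja-1* could not have been seen. A mean over all 6 arrays above 4 was reached by 58 members, of which 39 were plastid, 4 mitochondrial, 6 nuclear and 9 unnamed. This selection uses the mean of both genotypes together, and the 58 are not the whole block. It does not remove every flat member, since AT2G07751 read 6.21 on all 6 arrays. Tied values also occur among plastid members above 4. For *rpl23*, 7.34957 was read on replicates 1 and 3 of both genotypes. Members without overlap between genotypes also held ties on *ninja-1* replicates 1 and 3, such as *rps12* (6.32696), *rpl14* (5.52426) and *psbI* (6.66077). What the ties come from was not tested.

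The plastid members with a mean above 4 were mostly lower in *ninja-1* roots, by small amounts. Of the 39 plastid members above 4, 36 (92.3%) had a lower mean in *ninja-1* than in WT, with a median difference of -0.26 (a change of -16.7%) and a range of -0.85 to 0.19. Over all 14212 probe sets tested with a mean above 4, 55.5% were lower and the median difference was -0.02. In RNA from whole roots, fewer plastids or plastid-rich cells and less transcript per cell cannot be told apart. No single one of the 39 passed the adjusted p of 0.05 (limma, two-sided, Benjamini-Hochberg over all probe sets tested), so the shift is a count of small differences in 1 direction.

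For 18 of the 39 the 3 *ninja-1* arrays all lay below the 3 WT arrays, and for 0 all lay above. The background for these counts is 15.1% of the probe sets above 4 for the lower direction and 11.4% for the higher. At an unadjusted p under 0.05, 13 of the 39 were lower and 0 higher, against a background of 11.1% lower and 8.67% higher. A difference of at least 0.2 in the lower direction was found for 25 of the 39, against 16.3% of all probe sets above 4. The direction was shared by dim and bright probe sets. Between 4 and 6, 9 of 10 plastid members were lower with a median of -0.26. Between 6 and 8, 17 of 18 were lower with a median of -0.31. Between 8 and 10, 7 of 8 were lower (median -0.15), and above 10 all 3 (median -0.23). The medians of all probe sets tested in the same 4 ranges were between -0.03 and -0.01.

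**Figure D1:**
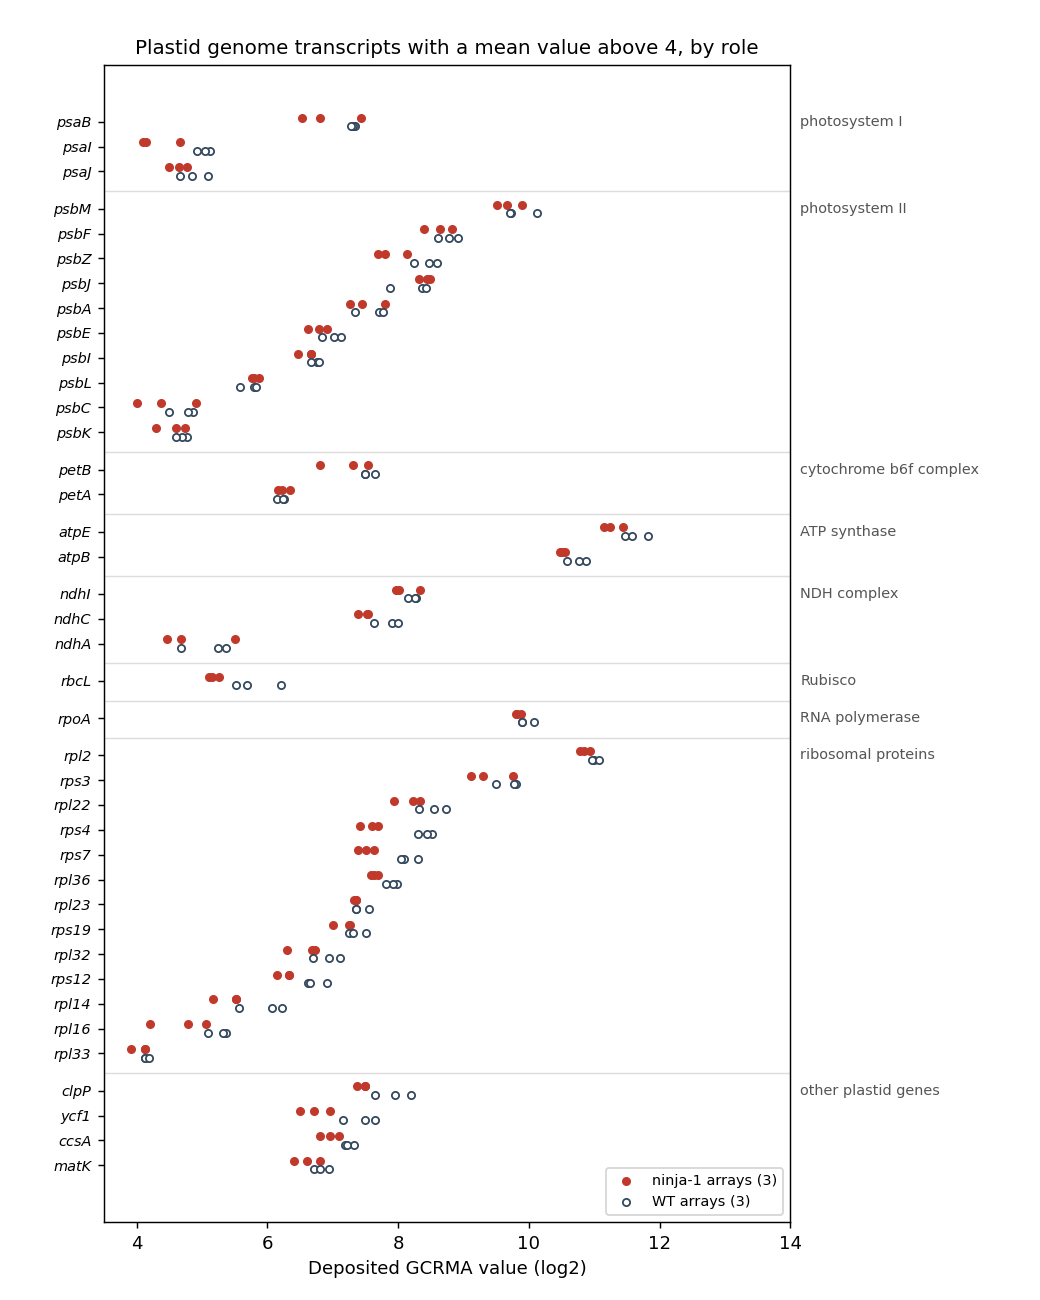
Deposited GCRMA values (log2, horizontal axis) of the 39 plastid members with a mean above 4, grouped by role. Filled red points are the 3 *ninja-1* arrays and open points the 3 WT arrays. In 36 of the 39 genes the *ninja-1* mean is the lower one, and in 18 the 2 sets of points do not overlap.

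The ribosomal protein genes were lower without exception among those above 4. All 13 had a lower mean in *ninja-1*, with a median difference of -0.35 (-21.7%), and 7 of them showed no overlap between genotypes. The largest difference belonged to *rps4*, which encodes a protein of the small subunit of the plastid ribosome. It read 7.60, 7.69 and 7.42 on the *ninja-1* arrays, against 8.51, 8.44 and 8.30 on the WT arrays. Every *ninja-1* value lay below every WT value, and the gap between genotypes exceeded the spread within either. The difference of -0.85 (SE 0.097) left *ninja-1* at 0.555 of the WT level, with an adjusted p of 0.0501, just outside the threshold. Its adjusted p was 0.0495 with array weights, 0.0491 with trend and robust settings, 0.0132 after centring each array on its median and 0.00292 when dim probe sets were left out. Over all alternatives it ran between 0.00292 and 0.186.

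A second small-subunit gene, *rps7*, read 7.52, 7.38 and 7.63 in *ninja-1* and 8.30, 8.09 and 8.04 in WT, a difference of -0.63 (SE 0.101, adjusted p = 0.0974). The genotypes were again separate. For *rps12*, whose transcript is joined from separate precursors by trans-splicing, 1 of its 2 probe sets read 6.33, 6.15 and 6.33 in *ninja-1* and 6.62, 6.91 and 6.65 in WT, a difference of -0.46 (adjusted p = 0.183), while the other was flat at 2.18. The large-subunit gene *rpl16* read 5.06, 4.21 and 4.78 in *ninja-1*, against 5.09, 5.37 and 5.32 in WT (difference -0.58, adjusted p = 0.462). Here the highest *ninja-1* array came close to the lowest WT array. The smallest differences in the group were those of *rpl23* (-0.08) and *rpl33* (-0.10), both overlapping between genotypes.

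Genes for the plastid-encoded RNA polymerase gave the one plastid call of the main test. The gene *rpoC1*, for a subunit of this enzyme, read 3.00, 3.00 and 2.99 in *ninja-1*, against 3.45, 3.48 and 3.55 in WT. It fell by 0.50 (SE 0.026, adjusted p = 0.00835), and was the only plastid member past the adjusted p, against a background of 0.374% called lower among all probe sets tested. The *ninja-1* values were almost identical (SD 0.00645), with 2.99884 on both replicates 1 and 2, and the probe set lies below 4. A repeated value above the floor also occurs in flat members, such as *rpoB* at 2.23281 on every array. Whether 2.99884 is a lower limit for the *rpoC1* probe set was not tested, so its small SE and the size of its fall are uncertain. The adjusted p of *rpoC1* was above the threshold when WT replicate 2 (0.0602), *ninja-1* replicate 1 (0.0584) or *ninja-1* replicate 2 (0.0629) was left out. It ran between 0.00343 and 0.129 over the alternatives that tested it, since the filter on dim probe sets removes it. The other polymerase genes differed by less. The one with a mean above 4, *rpoA*, read 9.81, 9.88 and 9.81 in *ninja-1* and 9.89, 9.90 and 10.07 in WT, a difference of -0.12 (SE 0.061) with no overlap but an adjusted p of 0.552. For *rpoC2* the difference was -0.13 with overlapping arrays, and *rpoB* was flat.

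Genes of the photosynthetic complexes were lower in 18 of 21 members above 4, with a median of -0.22, compared with -0.33 for the 14 members above 4 that encode polymerase or ribosomal subunits. The difference between these medians was not tested. In photosystem I all 3 were lower. The gene *psaI*, for a small subunit, read 4.14, 4.10 and 4.66 in *ninja-1* and 4.92, 5.13 and 5.05 in WT (-0.73, SE 0.182, adjusted p = 0.213). The genotypes did not overlap, although *ninja-1* replicate 3 lay nearer to WT than the others. For *psaB*, which encodes a reaction centre protein, the same array exceeded the WT values. It read 6.80, 6.52 and 7.44 in *ninja-1*, against 7.35, 7.31 and 7.28 in WT. Its difference was -0.39, and -0.19 without *ninja-1* replicate 2.

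In photosystem II 8 of 10 members above 4 were lower, with a median of -0.14. The largest difference was that of *psbZ*, for a small subunit, at 7.70, 7.80 and 8.14 in *ninja-1* and 8.59, 8.47 and 8.24 in WT (-0.56, adjusted p = 0.268). The genotypes did not overlap. The reaction centre gene *psbA* read 7.26, 7.79 and 7.45 in *ninja-1* and 7.70, 7.77 and 7.33 in WT, which overlap widely. The small-subunit genes *psbM* and *psbF* differed by -0.17 and -0.14 and overlapped too. The difference was -0.03 for *psbM* without WT replicate 2 and -0.03 for *psbF* without *ninja-1* replicate 1.

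The large subunit of Rubisco, the CO2-fixing enzyme, is encoded by *rbcL*. It read 5.11, 5.26 and 5.14 in *ninja-1*, against 6.21, 5.69 and 5.53 in WT, with no overlap. The difference of -0.64 (SE 0.202) had an adjusted p of 0.312, since the WT arrays spread widely (SD 0.358). The ATP synthase genes *atpE* and *atpB*, which lie next to each other, were both lower without overlap. *atpE* read 11.24, 11.15 and 11.44 in *ninja-1* and 11.47, 11.83 and 11.58 in WT (-0.35, SE 0.130). *atpB* read 10.50, 10.48 and 10.56 in *ninja-1* and 10.88, 10.77 and 10.58 in WT (-0.23, SE 0.086). The lowest WT array of each was close to the highest *ninja-1* array.

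All 3 NDH members above 4 were lower, among them *ndhC* (-0.36, no overlap) and *ndhI* (-0.12, overlapping), which encode subunits of the complex that carries electrons around photosystem I. Of the cytochrome b6f genes, *petB* for cytochrome b6 differed by -0.33 and *petA* for cytochrome f by 0.03. The *petB* values were 7.31, 6.80 and 7.53 in *ninja-1* and 7.49, 7.50 and 7.64 in WT, with *ninja-1* replicate 2 well below the other arrays, and the difference without it was -0.12.

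Of the remaining plastid genes (envelope, protease, cytochrome assembly and intron maturase genes), all 4 above 4 were lower and 3 did not overlap (median -0.38). The gene *ycf1*, for a large protein of the inner envelope, read 6.72, 6.50 and 6.96 in *ninja-1* and 7.15, 7.65 and 7.49 in WT (-0.70, SE 0.189, adjusted p = 0.243). The gene *clpP*, for the plastid-encoded subunit of the Clp protease, read 7.49, 7.49 and 7.38 in *ninja-1* and 7.95, 8.19 and 7.65 in WT (-0.48, adjusted p = 0.315). Both sets of arrays were separate. The cytochrome assembly gene *ccsA* differed by -0.29 without overlap, and the intron maturase gene *matK* by -0.21 with overlap. Of the 14 plastid members that were at or below 4 but not flat, 12 were lower, with a median of -0.12.

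**Figure D2:**
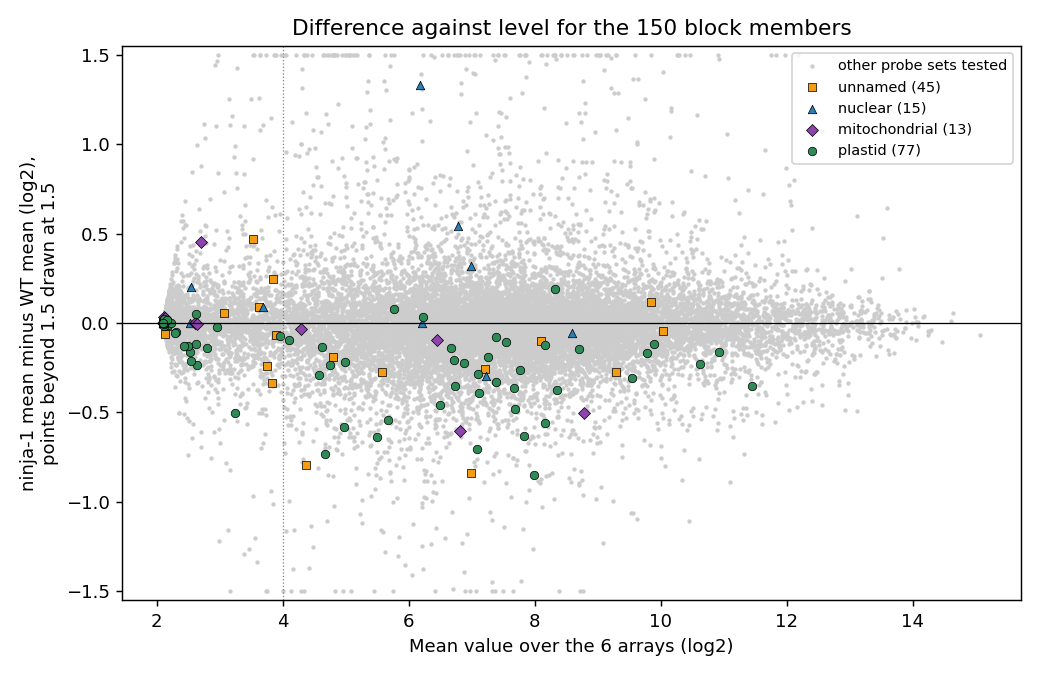
Mean of the 3 *ninja-1* arrays minus mean of the 3 WT arrays (log2, vertical axis) against the mean of the 6 arrays (log2, horizontal axis), for the 150 block members in colour and all other probe sets tested in grey (those beyond 1.5 drawn at 1.5, the dotted line at a mean of 4). Plastid members above 4 lie mostly below 0, between -0.85 and 0.19, within the cloud of the other probe sets.

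The 3 plastid members above 4 with a higher mean in *ninja-1* are neighbours on the plastid genome, in the order *petA*, *psbJ* and *psbL*. *psbJ*, for a small subunit of photosystem II, read 8.44, 8.48 and 8.32 in *ninja-1* and 7.87, 8.37 and 8.43 in WT. *psbL*, for another, read 5.79, 5.77 and 5.87 in *ninja-1* and 5.58, 5.79 and 5.83 in WT. The genotypes overlapped for both, and WT replicate 1 alone lay clearly below the rest. Their differences were 0.19 (SE 0.174) and 0.08 (SE 0.079). The sign for *petA* turned when WT replicate 1 (-0.00153) or *ninja-1* replicate 3 (-0.0207) was left out. The next 2 genes in the order, *psbF* and *psbE* for the subunits of cytochrome b559, are known to be transcribed together with *psbL* and *psbJ*, and they differed by -0.14 and -0.22.

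The run of neighbouring genes between *rpl23* and *rpoA*, known as a ribosomal protein cluster, was lower throughout its 9 named members above 4. In gene order they differed by -0.08 (*rpl23*), -0.16 (*rpl2*), -0.19 (*rps19*), -0.37 (*rpl22*), -0.31 (*rps3*), -0.58 (*rpl16*), -0.54 (*rpl14*), -0.26 (*rpl36*) and -0.12 (*rpoA*). None of the 9 passed the adjusted p, and single arrays moved several values. Without *ninja-1* replicate 2 the difference was -0.34 for *rpl16* and -0.17 for *rps3*, and without WT replicate 3 it was -0.06 for *rpoA*.

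**Figure D3:**
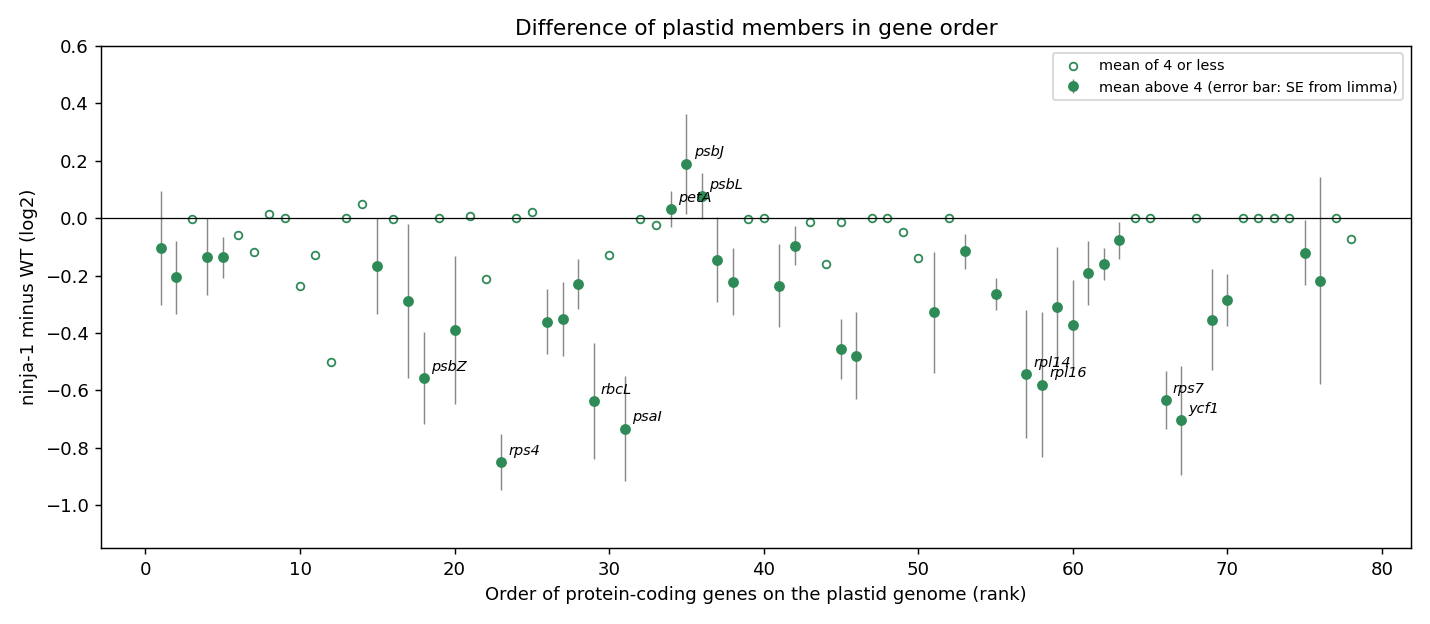
Difference of the plastid members (mean *ninja-1* minus mean WT, log2) in the order of the protein-coding genes on the plastid genome. Filled points have a mean above 4, with the SE from limma, and open points a mean of 4 or less; *petA*, *psbJ* and *psbL* are the only filled points above 0.

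Few mitochondrial members had a mean above 4. They were matched to genes by symbol, and signal from the mitochondrial copy on chromosome 2 cannot be told apart from theirs. All 4 above 4 had a lower mean in *ninja-1*, with a median of -0.30, and 3 did not overlap. Of all probe sets above 4, 55.5% had a lower mean and 15.1% were lower without overlap. The gene *ccb382* (*ccmFN1*), for a cytochrome c maturation factor, read 8.64, 8.67 and 8.26 in *ninja-1* and 9.09, 9.06 and 8.92 in WT (-0.50, SE 0.137, adjusted p = 0.250). A probe set listed for both *rps3* and *rpl16* of the mitochondrial ribosome read 6.76, 6.19 and 6.61 in *ninja-1* and 6.87, 7.30 and 7.20 in WT (-0.60, adjusted p = 0.343). The complex I gene *nad4* read 6.35, 6.43 and 6.43 in *ninja-1* and 6.48, 6.58 and 6.44 in WT. It differed by -0.10, and the lowest WT array was close to the highest *ninja-1* arrays. The maturation gene *ccb452* (*ccmFC*) differed by -0.04, and by 0.07 without *ninja-1* replicate 2.

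Of the dimmer mitochondrial members 5 were flat, among them *nad7*, *nad9* and *orfX* (*mttB*), a gene of a protein transport complex. The 4 that were not flat had a higher mean in *ninja-1*. Only *cox2*, for a subunit of cytochrome c oxidase, differed by more than 0.05. It read 2.96, 3.17 and 2.66 in *ninja-1* and 2.67, 2.38 and 2.38 in WT (0.45, SE 0.168, adjusted p = 0.381). Of 11 probe sets for mitochondrial genes outside the block, 1 had a mean above 4. It belongs to *cox1*, for another subunit of that oxidase, at 5.99, 6.11 and 6.00 in *ninja-1* and 6.57, 6.10 and 6.36 in WT, which overlap.

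The nuclear members did not share the direction. The only member of the block past both the adjusted p and 2-fold was *AR781*, at an AT2G26 locus. It read 6.86, 6.76 and 6.89 in *ninja-1* and 5.57, 5.23 and 5.73 in WT. All *ninja-1* arrays were higher by more than either spread. It rose by 1.33 (SE 0.145, adjusted p = 0.0453, 2.51 times the WT level), against a background of 0.805% called higher by the adjusted p and 0.492% by both criteria. No member was lower by both criteria (background 0.0484%). The call was lost when any 1 array was left out (adjusted p between 0.0562 and 0.168), with array weights (0.0581) and without moderation (0.0866). Over all alternatives the adjusted p ran between 0.00141 and 0.168. Another AT2G26 locus, AT2G26360, read 7.18, 6.97 and 7.01 in *ninja-1* and 6.45, 6.46 and 6.63 in WT (0.54, SE 0.084, adjusted p = 0.0926). AT2G26500 differed by 0.32 with overlapping arrays. Of the 5 AT2G07 members, 4 were flat and AT2G07708 differed by -0.30 without overlap. Of the 9 unnamed members above 4, 8 were lower, with a median of -0.26 and a largest difference of -0.84.

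Over the whole block the median difference was therefore close to 0 (-0.00118), with 80 members lower, 27 higher and 43 equal. The mean over the 150 members was -0.0971. Restricted to the 58 members above 4, 50 were lower and the median was -0.23 (-14.9%), while the median over all probe sets tested was 0. By the main test 1 member was called lower (*rpoC1*) and 1 higher (*AR781*), and of all probe sets tested 1.18% were called in either direction.

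The 3 *ninja-1* arrays contributed unequally. The median deviation of the 39 plastid members from their WT mean was -0.27, -0.42 and -0.15 on *ninja-1* replicates 1, 2 and 3, and -0.07, 0.04 and 0.02 on the WT replicates. By this measure all *ninja-1* arrays lay below all WT arrays. The WT arrays form the reference mean themselves, which draws their own deviations towards 0. The plain median of the 39 values did overlap, at 7.26, 6.81 and 7.35 on the *ninja-1* arrays and 7.35, 7.51 and 7.33 on the WT arrays. The SD of these plain medians, pooled within genotypes, was 0.22. For all probe sets above 4 the median deviations were between -0.03 and 0.00 on the *ninja-1* arrays and between -0.01 and 0.01 on the WT arrays. Of the 39 members, 32, 31 and 20 were below every WT array on *ninja-1* replicates 1, 2 and 3, against 32.5%, 38.0% and 35.9% of all probe sets above 4. The lowest of the 6 values fell on *ninja-1* replicate 2 for 25 of the 39.

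*ninja-1* replicate 2 also stood apart in the 24 probe sets of the poly-A spike controls, bacterial RNAs with tails that are added to the sample before labelling. Their median deviation from the WT mean was 0.19, -0.75 and 0.16 on the *ninja-1* arrays and -0.05, -0.04 and 0.08 on the WT arrays. Without this array 36 of the 39 plastid members were still lower, 20 did not overlap (background 18.9% of the probe sets above 4) and the median was -0.21. The 4 mitochondrial members above 4 had medians of -0.26, -0.30 and -0.29 on the *ninja-1* arrays, and 3 of the 4 were lower without replicate 2. On *ninja-1* replicates 1 and 3 the spikes were above, and the plastid members below, the WT mean. Whether the spikes follow the labelling of organelle transcripts, which mostly lack such tails, was not tested.

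**Figure D4:**
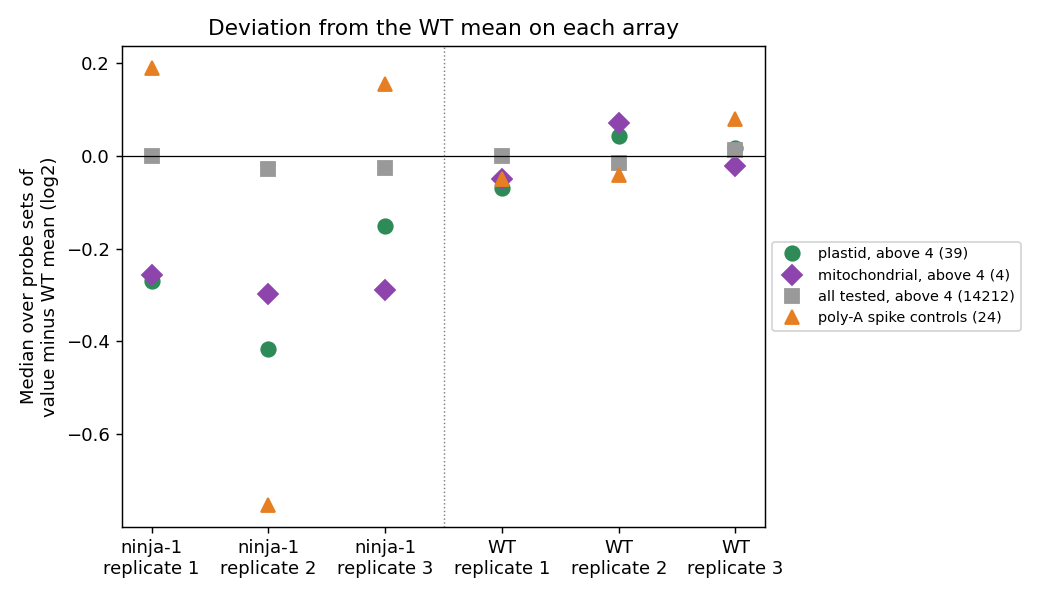
Median deviation from the WT mean (log2, vertical axis) on each of the 6 arrays, *ninja-1* on the left and WT on the right, for plastid members above 4, mitochondrial members above 4, all probe sets tested above 4 and the poly-A spike controls. The plastid and mitochondrial medians are below those of WT on each *ninja-1* array, and the spikes are low on *ninja-1* replicate 2 alone.

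Other measures of the RNA and tissue were read from the same arrays. The 25S rRNA probe set read 11.96, 11.87 and 11.96 in *ninja-1* and 12.10, 12.04 and 11.98 in WT, lower in *ninja-1* without overlap. Of 6 control probe set pairs for actin, GAPDH and ubiquitin, the 3'-minus-5' difference was apart between genotypes in 1 and overlapped in 5. The separate one, for actin, was 2.62, 2.32 and 2.54 in *ninja-1* and 2.77, 2.70 and 2.85 in WT, while a GAPDH control read 1.12, 1.34 and 1.26 in *ninja-1* and 1.44, 1.21 and 1.24 in WT. A gene counts as measured only where the annotation names a probe set for it alone, and 8730 of the 22746 probe sets tested have no name. Of 9 root markers 2 were measured in this sense, and neither was at the floor. Their summed value was 22.8 to 22.9 in *ninja-1* and 22.3 to 22.5 in WT. One of them, *PYK10*, rose by 0.30 (adjusted p = 0.00838). The other, *EXPA7*, differed by 0.15 (adjusted p = 0.486). Of 7 green tissue markers the 1 measured, *RCA* for Rubisco activase, read 10.1 to 10.5 in *ninja-1* and 10.1 to 10.2 in WT. The part of these measures in the plastid values was not tested.

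Few of the listed nuclear genes for these complexes are named in the annotation used, and none for the plastid ribosome was looked up. In a list of nuclear photosynthesis genes taken by symbol after the data had been seen, 9 of 10 had a higher mean in *ninja-1* and the median difference was 0.32. Of all 14212 probe sets above 4, 6307 had a higher mean. The list includes the dim *LHCB4.3*, at a mean of 2.49 in *ninja-1* and 2.37 in WT. At an unadjusted p under 0.05, 5 of the 10 were higher (background 8.67% of the probe sets above 4) and 0 lower, and 0 passed the adjusted p. *PSAE-1*, for a subunit of photosystem I, read 8.51, 8.41 and 8.38 in *ninja-1* and 7.96, 7.86 and 7.64 in WT (0.61, SE 0.097, adjusted p = 0.0963). *LHCB4.2*, for a light-harvesting protein of photosystem II, read 7.21, 7.20 and 7.48 in *ninja-1* and 6.86, 6.93 and 6.58 in WT (0.51, adjusted p = 0.233). The genotypes did not overlap for either. The exception was *PSB27*, for a photosystem II assembly factor, at -0.05. Of the list of 16 such genes by locus only 1 was measured, *ATPC1* (0.13), for a subunit of the ATP synthase.

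Little of the nuclear machinery for organelle transcripts is named in the annotation used, which says nothing of the level of the rest. Of 9 genes for organelle RNA polymerases and sigma factors 1 was measured, AT5G15700 for a phage-type polymerase (-0.03), and of 9 genes for proteins attached to the plastid polymerase 0 were. Of 21 genes for organelle RNA processing 3 were measured and 0 passed the adjusted p. The largest difference was that of AT5G14580, the mitochondrial polynucleotide phosphorylase, which trims RNA from its 3' end. It read 7.18, 7.00 and 7.28 in *ninja-1* and 6.78, 6.68 and 6.78 in WT (0.41, SE 0.084, adjusted p = 0.148), with no overlap. Of 16 nuclear genes for mitochondrial respiration 5 were measured. Their differences ran between -0.19 (*CYTC-2*) and 0.02 (*CYTC-1*), both for cytochrome c, with 3 lower, 2 higher and 0 past the adjusted p.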

How the data were processed

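Total RNA from roots was labelled with biotin and hybridised to ATH1 arrays, 3 per genotype. The deposited values are log2 values that the authors made with GCRMA in R (version not given in the sources used here), which corrects background by probe sequence, quantile normalizes and summarizes probe sets. That changes the low end, where values pile up at a floor. All 6 arrays were used and 0 value columns were left out. After removal of 64 control probe sets from 22810, the other 22746 were fitted with limma 3.58.1 under R 4.3.3 (lmFit and eBayes, genotype as the only term, two-sided). Called means an adjusted p under 0.05, and also 2-fold where stated. The fit was run on simulated data with a common spread for all probe sets and no floor. That run does not cover dim probe sets. The number of arrays limits the precision, and p-values measure the spread between pools of roots.

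Names came from the platform annotation and RefSeq (TAIR10.1). Plastid members matched by gene ID (77) and mitochondrial members by symbol (13). Of the block, 104 probe sets have 1 symbol, 1 has several and 45 have none. Of all probe sets tested, 13523 have 1, 493 several and 8730 none. The members and gene lists were chosen with earlier results of these data known. The text names members past the adjusted p, in each genome the 6 highest WT means and the 5 largest differences each way among those above 4, in each role the brightest, and the 3 largest nuclear differences, each with 1 gene entry. Other genes named were chosen after their values were seen. Alternatives covered eBayes settings, moderation, a filter on dim probe sets (above 4 on at least 3 arrays), centring, quantile normalization, a replicate block, array weights, removal of probe sets for several transcripts, the mean in place of the median and leaving out each array. Counts without *ninja-1* replicate 2 were added after seeing the data.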

Additional observations from a re-analysis of the deposited data

How the results depend on the processing

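Of all probe sets tested, 123 were called at 2-fold, 210 after centring each array on its median, 228 without dim probe sets, 0 with the replicate block and 36 to 95 when 1 array was left out (36 without *ninja-1* replicate 2). Block members called higher numbered 1 in the main test, 0 with array weights, without moderation, with the replicate block and without any 1 array, and 2 after centring (background 2.23%) or without dim probe sets (3.53%). Members called lower numbered 1 in the main test (background 0.374%). They numbered 2 under array weights (96 of 22746 probe sets called lower) or trend and robust settings (background 0.391%), and 3 after centring (1.35%). Without dim probe sets they numbered 7 (*rps4*, *rps7*, *rps12*, *ycf1*, *psaI* and 2 unnamed members, background 3.49% called lower). They numbered 0 with the replicate block, and 0 to 1 when 1 array was left out (17 to 60 of 22746 called lower). With the block the adjusted p was 0.129 for *rpoC1* and 0.154 for *AR781*. The replicate numbers share no stated origin. Deviations of arrays with the same number correlated at 0.102, 0.0453 and 0.164 over 14212 probe sets, and *ninja-1* replicate 2 correlated best with WT replicate 1 (0.178).

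The median over all 150 members was -0.00118, and -0.23 without dim probe sets, -0.0971 as a mean and 0.0326 after centring, which put the median of all probe sets tested at 0.0338. For members above 4 it stayed between -0.29 and -0.18, and for plastid members above 4 between -0.31 and -0.21, when 1 array was left out. Without *ninja-1* replicate 2, photosystem I members without overlap numbered 2 in place of 1, and the other counts of lower members moved by no more than 1.5 times. Among named members the sign turned for *nad9* after centring (0.0279), *petA* (-0.0207 to 0.0736 when 1 array was left out, below 0 without WT replicate 1 or *ninja-1* replicate 3) and *ccb452* (-0.134 to 0.0683, above 0 without *ninja-1* replicate 2). The causes were not tested. The floor limits what can be seen, since the mean of 61 members lay within 0.05 of it.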
